A study of Mus musculus with 12 samples.

Results

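The endoplasmic reticulum (ER) chaperone and unfolded protein response genes of fetal mouse liver are described here through 10 genes, Hspa5, Hsp90b1, Xbp1, Dnajb9, Pdia4, Herpud1, Sdf2l1, Calr, Hyou1 and Edem1. They were chosen by name, with earlier results of these data known. All 10 were found among the 30743 rows of gene symbols in the deposited table. Whole livers of male C57BL/6J fetuses were collected at 15 ± 0.5 dpc, 6 from dams on a control diet (13.5 kcal% fat) and 6 from dams on a high-fat diet (HFD, 60 kcal% fat), both fed for 12 to 14 weeks. Their polyA-selected RNA was sequenced. The table gives for each gene 1 average log2 CPM (the read count of a gene, scaled to a common library size) over the 12 livers of both diets. Its other columns hold the authors' own comparison of the diets and were not used, so every value below is a level over both diets, without a spread between livers, and no difference between the diets was tested.

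Secreted and membrane proteins fold in the ER with the help of chaperones, enzymes that form disulfide bonds and lectins that read the state of the attached sugars. When unfolded proteins accumulate, sensors in the ER membrane set off the unfolded protein response (UPR), which raises the transcription of these helpers and of the machinery that returns misfolded proteins to the cytosol for degradation. The fetal liver at this age holds both hepatoblasts, which secrete plasma proteins, and a large population of maturing red cells. In a whole liver, more cells of a type and more RNA per cell cannot be told apart.

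The table divided the 10 genes sharply. Calr, Hsp90b1, Pdia4, Sdf2l1 and Dnajb9 lay between 51.7 and 1574 CPM, while Edem1 and Hyou1 lay under 1 CPM and Hspa5, Xbp1 and Herpud1 were listed at the value of rows without any read. Hspa5 encodes BiP, the abundant Hsp70 of the ER, and Xbp1 encodes a central transcription factor of the UPR. Genes used by every cell were also listed under 1 CPM (Ppia and Tbp among them, below), so a low entry is given here as an entry of the table and not as the level of the mRNA in the liver.

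**Figure D1:**
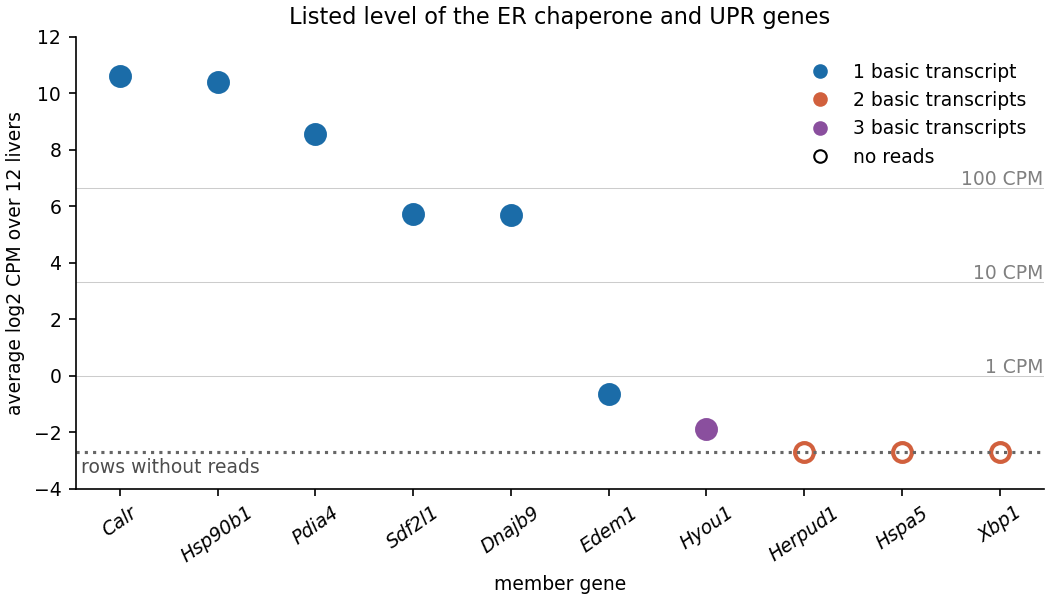
Average log2 CPM over the 12 livers (vertical axis) of each of the 10 genes (horizontal axis), with colour for the number of GENCODE basic transcripts and open circles for genes listed without reads. The 5 genes from Calr to Dnajb9 lie above 10 CPM, and the other 5 lie under 1 CPM, with Herpud1, Hspa5 and Xbp1 on the dotted line of rows without reads (-2.71).

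Several of these genes share a control sequence, which is shown because it ties together genes that the table lists very differently. The ER stress response element (ERSE, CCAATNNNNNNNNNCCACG) pairs a CCAAT box with a site for the UPR factor ATF6, and ERSE-II (ATTGGNCCACG) is its compact form. RefSeq promoter windows of GRCm38.p6, from 250 bases before to 50 after the transcript start, were matched for 9 of the 10 genes, all but Hyou1. On both strands, ERSE was found in 3 of these 9, Hspa5, Calr and Hsp90b1, and in 39 of the 32851 windows of all genes (0.119%). ERSE-II was found in 1 of the 9, Herpud1, and in 12 windows in all (0.0365%). Motifs and genes were both chosen as known parts of the UPR. The difference from all windows is thus no independent result and was not tested. The 2 motifs end in the same 5 letters, and no window of the 9 held both. Each match is printed on the strand of the gene with 5 bases on either side, and the capitals mark the motif.
Hspa5, chr2:34772020-34772048, plus strand: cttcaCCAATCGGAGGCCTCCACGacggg
Calr, chr8:84847070-84847098, minus strand: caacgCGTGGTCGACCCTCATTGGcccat
Hsp90b1, chr10:86705633-86705661, minus strand: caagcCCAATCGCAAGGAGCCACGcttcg
Hsp90b1, chr10:86705528-86705556, minus strand: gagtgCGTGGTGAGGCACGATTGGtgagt
Herpud1, chr8:94386372-94386392, plus strand: cgctgATTGGGCCACGttgga

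In Calr and in the second stretch of Hsp90b1 the element reads in the opposite direction to the gene, as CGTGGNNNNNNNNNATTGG. The elements began 65 bases before the RefSeq start in Hspa5, 162 in Calr, 212 and 107 in Hsp90b1 and 52 in Herpud1. GENCODE places the start of the Hspa5 gene further upstream, at 34771970, so that the Hspa5 stretch lies within the annotated gene there. Another motif, the 8 letters TGACGTGG of an unfolded protein response element (UPRE-type), which holds the last 5 letters of ERSE on its other strand, was in none of the 9 windows and in 222 of all windows (0.676%). Pdia4, Sdf2l1, Dnajb9, Edem1 and Xbp1 held no ERSE or ERSE-II within these windows. Genes with an element thus stood at both ends of the listed levels, with Calr and Hsp90b1 highest and Hspa5 and Herpud1 without reads. A match of letters is a description and not a measured binding site.

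**Figure D2:**
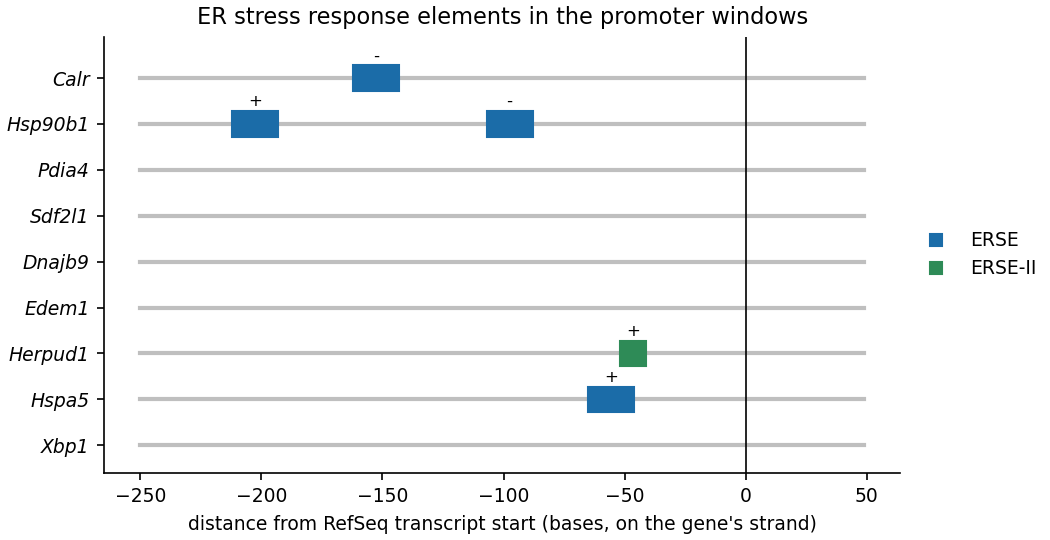
Position of ERSE (blue) and ERSE-II (green) matches in the promoter windows of 9 genes, in bases from the RefSeq transcript start (horizontal axis, 0 is the start), with the strand of each match relative to the gene above it. Hsp90b1 has 2 matches, Calr, Hspa5 and Herpud1 have 1 each, and all lie upstream of the start.

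Among the chaperones themselves, Calr had the highest level. It encodes calreticulin, a lectin that holds newly made glycoproteins, and its locus spans 84841850 to 84846934 of chromosome 8 (GRCm38, as are all gene positions here). Its average was 10.62 log2 CPM, or 1574 CPM, and 99.7% of the 19652 rows with reads lay at or below it. Hsp90b1, on chromosome 10 from 86690209 to 86705509, encodes GRP94, the Hsp90 of the ER, and stood next at 10.41 log2 CPM, or 1362 CPM. Since a longer transcript yields more fragments, levels of different genes were compared per kilobase of the longest basic transcript, and Calr (721 CPM per kb) then stood 1.49 times as high as Hsp90b1 (482 CPM per kb). Without the spread between livers, whether neighbours in this order differ cannot be told.

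Pdia4, on chromosome 6 from 47796141 to 47813430, encodes ERp72, a protein disulfide isomerase. Its level was 8.56 log2 CPM, or 378 CPM, and 157 CPM per kb. Pdia4 was thus next below Calr and Hsp90b1 on either scale.

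Sdf2l1 and Dnajb9 encode cofactors of BiP. Sdf2l1 forms a complex with the ER DnaJ proteins, and Dnajb9 (ERdj4) is a DnaJ protein that also takes part in the removal of misfolded proteins. Sdf2l1, on chromosome 16 from 17130138 to 17132383, had 5.71 log2 CPM, or 52.2 CPM. Dnajb9, on chromosome 12 from 44205559 to 44210326, had 5.69 log2 CPM, or 51.7 CPM. The level of Sdf2l1 was 1.01 times that of Dnajb9 in CPM and 2.25 times in CPM per kb (47.1 against 21.0), since its longest transcript has 1108 bases and that of Dnajb9 has 2461. Per kilobase of coding sequence they stood at 78.8 and 77.6 CPM, so that Sdf2l1 was the higher on all 3 scales and the size of the gap varied with the length used.

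The remaining chaperone with reads was Hyou1 (GRP170), a large relative of Hsp70 that exchanges the nucleotide of BiP. Hyou1, on chromosome 9 from 44379490 to 44392369, was listed at -1.91 log2 CPM, or 0.267 CPM. From the value of rows without reads, the average library had an effective size of 13129748 reads, if the averages carry the usual prior count of 2. On that scale Hyou1 had 18.0 reads in the 12 livers together (95% exact Poisson interval of 18 reads, 10.7 to 28.4, counting error only). Calr had about 247963 reads by the same computation.

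Hspa5, on chromosome 2 from 34771970 to 34777547, was listed at -2.71 log2 CPM, the lowest value of the table. On the same scale this is 0 reads in the 12 livers together, a count that allows up to 0.0190 CPM (3 reads), again for counting error only. Printed as CPM the entry is 0.152, which consists of the prior count alone. BiP works with Hyou1, Dnajb9 and Sdf2l1, and of these 3 partners Dnajb9 had an estimated 8115 reads, Sdf2l1 8203 and Hyou1 18.0.

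Edem1 and Herpud1 serve the removal of misfolded proteins. Edem1, on chromosome 6 from 108828641 to 108859356, encodes a protein that marks misfolded glycoproteins by their trimmed sugars. Its entry was -0.65 log2 CPM, or 0.635 CPM, and its estimated 76.1 reads in 12 livers have a 95% exact Poisson interval of 59.9 to 95.1 for 76 reads. The lowest of the 5 genes above 10 CPM, Dnajb9, stood 81.3 times as high in listed CPM, prior count included. Without the prior count Dnajb9 stood at 51.5 CPM and Edem1 at 0.483, a larger gap. Herpud1, on chromosome 8 from 94386438 to 94395377, encodes a scaffold of the ubiquitin ligase complex in the ER membrane. It was listed with 0 reads, at the same limit of 0.0190 CPM.

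Xbp1, on chromosome 11 from 5520659 to 5525893, was the single transcription factor among the 10 genes. Its mRNA is spliced by the sensor IRE1 when the UPR is on, and the spliced form encodes the active factor. Xbp1 was listed with 0 reads, so the table gives no value for either form.

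The structure of the genes in the annotation ran alongside this division. Calr, Hsp90b1, Pdia4, Sdf2l1 and Dnajb9 each have 1 transcript in the basic set of GENCODE M21. Hspa5, Xbp1 and Herpud1 have 2 each, and Hyou1 has 3. Of the 6 members with 1 basic transcript, 5 lay above 10 CPM, and of the 4 with more, none did. Edem1 was the exception, with 1 basic transcript and 0.635 CPM. Counted over RefSeq's curated transcripts instead, Hspa5, Xbp1, Herpud1 and Pdia4 have 2 and the other 6 have 1, so that Pdia4 at 378 CPM, Hyou1 and Edem1 did not follow the division.

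The transcripts of the low genes overlapped to different degrees. In Herpud1, 96.0% of the 1952 exonic bases belong to both basic transcripts, and 4.05% to only 1. In Hspa5, 67.4% of 3754 exonic bases are shared by both, and in Xbp1, 26.7% of 2389. In Hyou1, 64.1% of 4774 exonic bases belong to all 3 transcripts and 6.54% to only 1. Exons of other genes covered none of the exonic bases of these 4 genes or of Edem1, Calr and Sdf2l1. They covered 21.6% of those of Hsp90b1, 0.584% of Pdia4 and 0.569% of Dnajb9.

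The same relation to basic transcripts held across the table. Of the 8759 protein-coding rows with 1 basic transcript, 36.5% lay above 10 CPM, and of the 11519 with more, 17.8%. The median level was 0.61 log2 CPM in the first group and -1.22 in the second. With RefSeq's curated transcripts the shares above 10 CPM were 32.8% and 16.1%. With every GENCODE transcript counted, fragments and retained introns included, the order turned, with 20.4% for 1 transcript and 27.0% for more. The share of rows without reads was 18.1% for 1 basic transcript and 25.4% for more. That order turned with curated transcripts (24.5% and 18.3%) and with every GENCODE transcript (31.4% and 20.4%). The gene model against which the reads were counted, and how reads in exons shared by several transcripts were treated, are not given in the sources used here. Their part in the low entries was not tested.

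**Figure D3:**
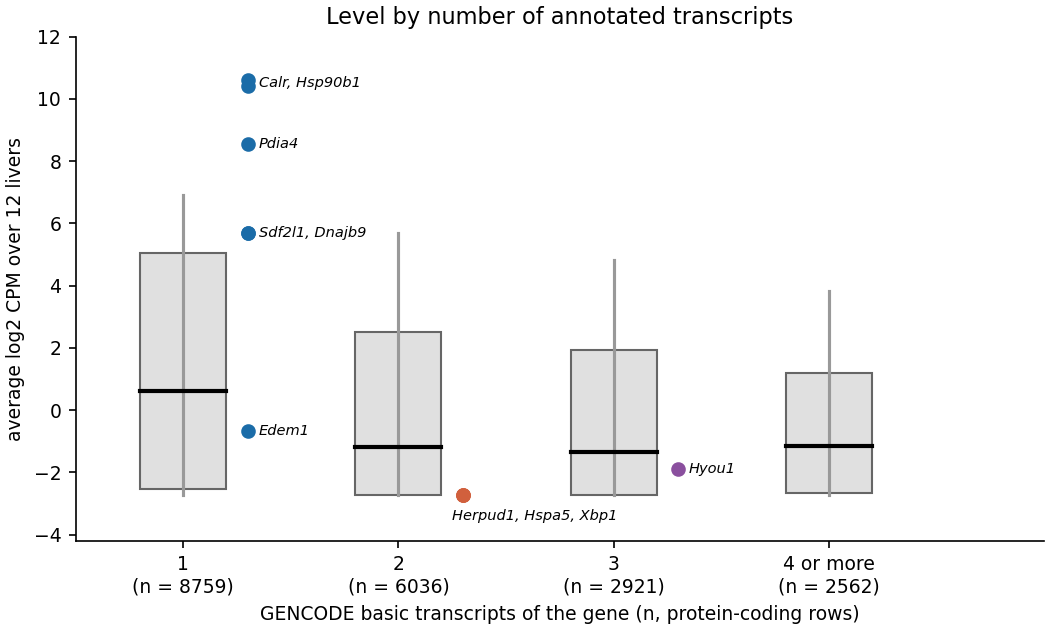
Average log2 CPM (vertical axis) of protein-coding rows by the number of GENCODE basic transcripts (horizontal axis), with boxes between the quartiles, a line at the median, whiskers between the outer deciles and the 10 genes beside them. The median falls from 0.61 with 1 transcript to -1.19 with 2, and Herpud1, Hspa5 and Xbp1 lie at the lowest value.

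The wider machinery of ER folding was read from 6 lists of 96 genes, also chosen with earlier results of these data known. Of these, 95 were listed in the table and Vimp was not listed under that symbol. Of the 95, 62 lay above 10 CPM (65.3%), against 18.0% of all rows and 25.9% of protein-coding rows. The median of the 95 was 5.80 log2 CPM, that of the rows with reads 0.20. Without the 10 genes above, 57 of 85 lay above 10 CPM, with a median of 6.06. Thus 5 of the 10 genes lay above 10 CPM and 67.1% of the rest of the lists, and 3 of the 10 were without reads against 3 of the 85. Of all rows 36.1% were without reads, and of protein-coding rows 22.2%, so the 3 of 10 lay near those shares.

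In the lumenal Hsp70 and Hsp90 system, 9 of 13 genes lay above 10 CPM, with Hsp90b1 highest per kilobase. Hspa5 was without reads, and Sec63, the DnaJ protein of the translocon, was the lowest per kilobase of those with reads, at 0.0452 CPM per kb (0.273 CPM). Hyou1 had 0.0594 CPM per kb and, with 0.267 CPM, stood below Sec63 without the length correction.

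All 18 disulfide isomerases and oxidases were listed at 1 CPM or more, and 14 lay above 10 CPM. P4hb, the classical protein disulfide isomerase, was highest with 1922 CPM, or 672 CPM per kb, and Txndc5 lowest with 1.00 CPM, a level reached only with the prior count included. Pdia4, with 157 CPM per kb, stood between P4hb and Txndc5.

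Of the 13 lectin chaperones and glycan-trimming genes, 5 lay above 10 CPM and Calr was highest. Canx, which encodes calnexin, the membrane-bound partner of calreticulin, was listed without reads. Uggt1, which re-glucosylates glycoproteins that are not yet folded, was the lowest per kilobase of those with reads at 0.431 CPM, prior count included. Another gene of this list had fewer estimated reads, 1.98 against 43.9, and a lower CPM (0.165). Edem1 was among the 5 genes of this list at or under 1 CPM.

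For ER-associated degradation, 7 of 14 genes lay above 10 CPM. Herpud1 and Derl3 were without reads, and Ufd1l, with 0.184 CPM, was the lowest per kilobase of the others. All 7 genes of this list with 1 basic transcript lay above 10 CPM, and none of the 7 with more did.

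Of the 14 sensors, transcription factors and regulators of the UPR, 9 lay above 10 CPM. Atf4, the transcription factor of the PERK branch, was highest at 667 CPM, or 387 CPM per kb. Xbp1 and Atf6b were without reads, and Ern1, which encodes the sensor IRE1 that splices Xbp1 mRNA, was lowest of the others at 0.305 CPM.

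The 23 genes of the translocon, the signal peptidase and the oligosaccharyltransferase, through which proteins enter the ER, held 18 above 10 CPM and none without reads. Ostc was highest per kilobase (278 CPM per kb), and Sec61g was lowest per kilobase, with 0.228 CPM, prior count included. Another gene of this list had fewer estimated reads than Sec61g, 1.99 against 11.9, and a lower CPM (0.165). The median of the 23 genes, 8.15 log2 CPM, was the highest of the 6 lists. All 11 with 1 basic transcript lay above 10 CPM, against 7 of the 12 with more.

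**Figure D4:**
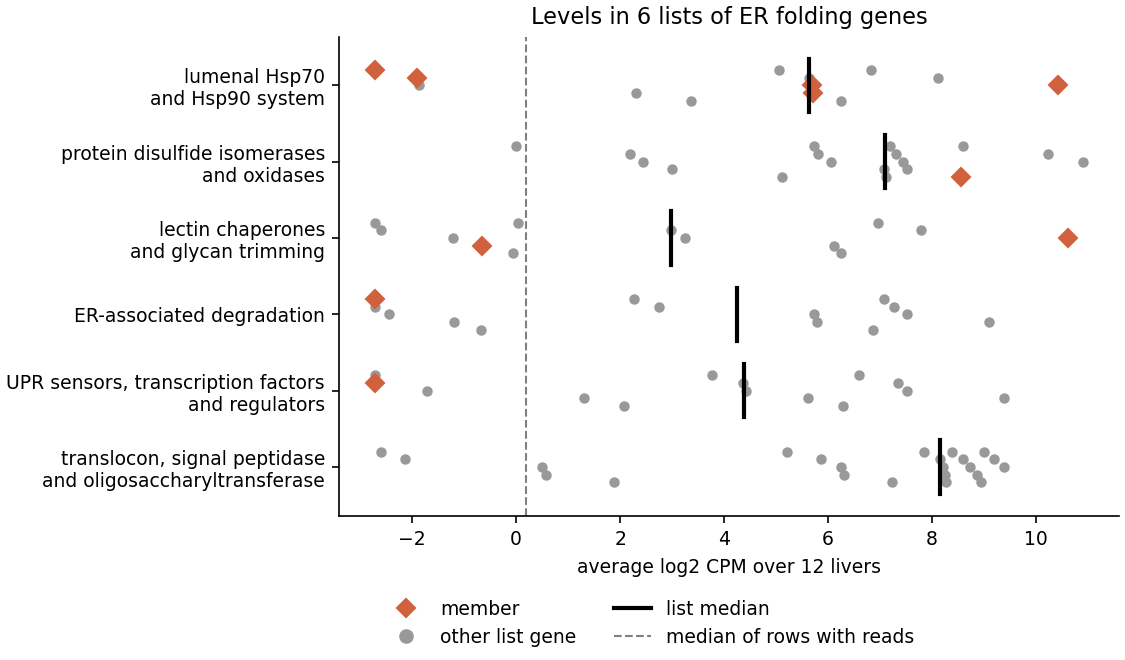
Average log2 CPM over 12 livers (horizontal axis) of the genes in 6 lists of ER folding genes (rows), with the 10 genes as orange diamonds, other genes as grey circles, list medians as black bars and the median of all rows with reads as a dashed line. The translocon list has the highest median (8.15), and the 10 genes include both the lowest and the highest of the Hsp70 and Hsp90 list (Hspa5 and Hsp90b1).

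Over all lists, 45 of 49 genes with 1 basic transcript lay above 10 CPM, and 17 of 46 with more. The other 4 of the 49, Edem1, Sec63 and Uggt1 among them, lay under 1 CPM. Among 27 genes used by every cell, a list drawn up after the table had been opened, all 13 with 1 basic transcript lay above 10 CPM, and 5 of 14 with more. Ppia was listed at 0.165 CPM, Gusb at 0.312 and Tbp at 0.638, all 3 with more than 1 basic transcript, and Gapdh with 3 basic transcripts at 5.20 CPM. Actb, with 2 basic transcripts, stood at 2581 CPM, and Psmb1, with 3, at 279 CPM. None of the 27 was without reads.

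The tissue matched its label. Alb (63314 CPM) and Afp (54525 CPM), plasma proteins of fetal hepatoblasts, and the globin gene Hba-a2 (49708 CPM) were among the most abundant. Ttr, Apoa1 and Trf ranged from 287 to 5096 CPM, and the erythroid genes Hbb-b1, Klf1, Gata1 and Epor from 224 to 24904 CPM. Dlk1 (1.47 CPM) and Alas2 (0.704 CPM), both with more than 1 basic transcript, were low. Trf and Pf4, at 287 and 150 CPM, also have more than 1. Hba-a1, Hbb-b2, Hbb-bs and Hbb-bt were not listed. Acinar cells and plasma cells, other secretory cells rich in ER, could add to the levels. Of 7 acinar genes, Ctrb1 reached 12.5 CPM, Cpa1 8.04 and Cel 1.80, while Cela2a, Prss2 and Pnlip lay at or under 0.310 and Amy2a5 was without reads. Their summed level was 23.2 CPM, prior counts included, in the average over the 12 livers. The part of acinar or plasma cells in the levels was not tested. Of 4 plasma cell genes, Sdc1 had 4.85 CPM, Igj and Prdm1 at most 0.336, and Irf4 was without reads. Sdc1, Prdm1 and Irf4 have more than 1 basic transcript, and Igj has 1. Of the other resident cells, Col1a1 (468 CPM), Pf4 (150), Kdr (71.0), Des (23.9), Itga2b (4.99) and Stab2 (2.24) were listed above 1 CPM. Csf1r and Cd68 lay at or under 0.684 CPM, and Emr1, Pecam1 and Pdgfrb were without reads. Each of these low genes has more than 1 basic transcript, and their entries are not read as absence of the cells.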

How the data were processed

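Libraries were made from polyA-selected RNA of 6 control and 6 HFD fetal livers. Per the labels and methods, the authors checked read quality with fastqc, aligned to mm10 with Subread 1.3.6-p1, annotated through biomaRt and tested HFD against control in edgeR, and the submitters' processing notes also name cutadapt 1.2.1. The counting tool, gene model and normalization are not given in the sources used here. The deposited table has 30743 rows with an average log2 CPM over the 12 libraries, which the authors computed, and with fold changes, p-values and adjusted p-values of HFD over control for a common and a tagwise dispersion. Those comparison columns were not used, and the 2 average columns were identical. Values of single livers were not analysed here, so the planned test of the diets was not run.

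The lowest value, shared by 11091 rows (36.1%), was read as 0 reads with a prior count of 2, which gave a mean effective library of 13129748 reads. All 3393 rows estimated at 1 to 6 reads lay within 0.25 of a whole number. Because the average weights libraries, larger totals are approximate. The computation was run on simulated counts built with the same prior count of 2 and an unweighted mean. Such counts can check the arithmetic but not the assumed prior count or the weighting. GENCODE M21 (GRCm38, the build of mm10) gave positions, transcripts and lengths for 22880 rows, older symbols matched through RefSeq synonyms. CPM, prior count included, were divided by the length of the longest basic transcript, so the order of genes with few reads depends on the prior count. The members and lists were chosen with earlier results of these data known. In each list the highest and lowest gene per kilobase, every gene without reads and all marker genes were named, except a few genes that are not reported here. Computations ran in Python 3.11.15 with pandas 2.3.3 and numpy 2.4.6, intervals came from scipy 1.17.1, and plots from matplotlib 3.10.9.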

Additional observations from a re-analysis of the deposited data

How the results depend on the processing

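The median level of the 5 genes above 10 CPM was 157 CPM per kb of the longest transcript, 196 per kb of coding length and 378 CPM without length correction, which are different scales. Of the 10 genes, 5 lay above 1 CPM and above 10 CPM, and 3 above 100 CPM, and of the 95 list genes 77, 62 and 38. The number of the 10 genes above the median row was 5 among rows with reads, 7 among all rows and 5 among rows above 1 CPM. With 1 mismatch allowed in the last 5 letters of ERSE, 5 of the 9 windows held it, against 0.998% of all windows. On the strand of the gene alone, 2 of the 9 did. Without the prior count, a choice made after seeing the data, Edem1 stood at 0.483 CPM and Hyou1 at 0.114. Counting every GENCODE transcript, also chosen then, gave 20.4% of rows with 1 transcript and 27.0% of rows with more above 10 CPM, in place of 36.5% and 17.8%.

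The normalizations, filters and leaving out of single livers planned for a test of the diets were not run, since values of single livers were not analysed here. No paired analysis was possible because the table gives 1 value a gene over all livers. The entries of Hyou1 and Edem1 rest on 18.0 and 76.1 estimated reads, which limits their precision, and Hspa5, Xbp1 and Herpud1 have no reads to give a level. The cause of these low entries was not tested.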
